A study of Mus musculus with 9 samples.

Results

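Genes whose expression peaked or dipped in the mid-gestation mouse brain are described here, from 9 RNA sequencing libraries of the central nervous system. All tissue was from C57BL6/J mice with no treatment given in the labels, with 3 libraries at each of 2 embryonic days, E9.5 and E14.5, and 3 at postnatal day 60 (P60). At E9.5 the material was the embryonic head cut behind the 4th ventricle and trimmed of much of its non-neural tissue. At E14.5 it was the brain stripped of meninges, and at P60 it was the adult central nervous system after saline perfusion. Stage and dissection changed together, so age and the tissue included cannot be told apart. A gene was a candidate where E14.5 differed from the mean of the E9.5 and P60 stage means on the log scale and lay beyond both of them. The difference from that mean passed for 11199 of 17971 genes tested (62.3%), higher for 37.2% and lower for 25.1%. The whole rule held for 6658 of 17971 genes tested (37%), 3650 above (20.3%) and 3008 below (16.7%). Since it can hold for a gene that hardly differs from 1 of the stages, the description centres on the 2635 genes (14.7%) that also passed the test against each stage separately. Of these, 1575 were above both stages (8.76% of genes tested) and 1060 below both (5.9%). The size of a peak or dip is given as its margin, the fold difference between E14.5 and the nearer of the other stages. That margin was at least 2-fold for 1661 genes (9.24%), 1085 above both stages (6.04%) and 576 below both (3.21%).

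Mid-gestation is the height of neurogenesis in the mouse forebrain. Radial glia, the stem cells that line the ventricles, divide to give intermediate progenitors, which divide again to give neurons. The newborn neurons migrate outward, switch on transcription factors that fix their identity, and extend axons by rebuilding their microtubules and reading guidance cues. At E9.5 the neural tube is mostly dividing neuroepithelium, and in the adult neurogenesis has ended nearly everywhere, glia are mature and axons are myelinated.

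Library totals ran from 30481975 to 35619093 counts, and the correlation of log2 expression across genes was 0.98 to 0.995 within a stage and 0.61 to 0.857 between stages. Whether each library came from its own animals is not said in the labels, and the p-values therefore reflect the variation among libraries alone, which may be technical. The first E9.5 library stood apart in heart and muscle genes, with Actc1, cardiac actin, at 130 CPM (counts per 1000000 counts of the scaled library) against 2.95 and 2.9 in the other E9.5 libraries. Xist, the RNA of the inactive X chromosome, was at 334 to 993 CPM in the E9.5 libraries, which also held reads of the Y-linked Kdm5d (20.6 to 37.2 CPM). At E14.5, Xist was near absent in replicates 1 and 2 (0.301 and 0.42 CPM, with Kdm5d at 46.1 and 56.2 CPM) and at 1038 CPM in replicate 3, where Kdm5d was at 0.0288 CPM. Replicate 3 at E14.5 thus came from different animals than replicates 1 and 2. Whether replicates 1 and 2, or the libraries within another stage, shared animals is not known. At P60, Xist was at 21.3 to 37.5 CPM and Kdm5d at 0 to 0.0333 CPM. Y-linked reads thus differed between the stages compared, and their part in the results was not tested. Neuronal identity of the E14.5 tissue was plain in Tubb3, a neuronal tubulin, at 3428, 2355 and 2212 CPM. Fibroblast collagen was also present, with Col3a1 at 198, 284 and 322 CPM at E14.5, 356 to 438 CPM at E9.5 and 3.06 to 5.6 CPM at P60. Unless said otherwise, the 3 values given for a stage are CPM in replicates 1, 2 and 3, and the adjusted p is that of the weaker of the 2 differences (edgeR quasi-likelihood test, Benjamini-Hochberg over all genes tested).

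Genes that passed against each stage were more often peaks than dips, and peaks had the larger median margin. Among the 1575 genes above both stages the median margin was 2.47-fold, 349 had a margin of at least 4-fold, 107 of at least 8-fold and 37 of at least 16-fold. Among the 1060 genes below both stages the median margin was 2.08-fold, with 190, 66 and 25 genes past the same sizes. All 3 E14.5 libraries lay above all 6 others for 13.1% of genes tested and below them for 9.76%. Of the peaks 1559 and of the dips 1048 did so, which the test that chose them on the same values makes likely. By the wider rule, which asks only for the contrast and a level beyond both stages, the excess of peaks (3650 against 3008) depended on the fit. Dips were the more numerous under median-of-ratios scaling (3250 peaks, 3477 dips), upper-quartile scaling (3356 and 3386), DESeq2 (3255 and 3516) and with a trend on exon length removed (3129 and 3478). The number of dips fell most without the second E14.5 library, to 692, 683 of them among the original 1060. It fell nearly as far without the third, to 713 (698 among the original), and rose without the first, to 1292 (959 among the original). The nearer stage was E9.5 for 795 peaks and P60 for 780. For dips it was E9.5 for 623 and P60 for 437. The 2075 genes that met the rule for a peak without passing against each stage had a median margin of 0.35 on the log2 scale, and the 1948 such dips a median of -0.39. The median contrast of all genes tested was 0.14 on the log2 scale.

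**Figure D1:**
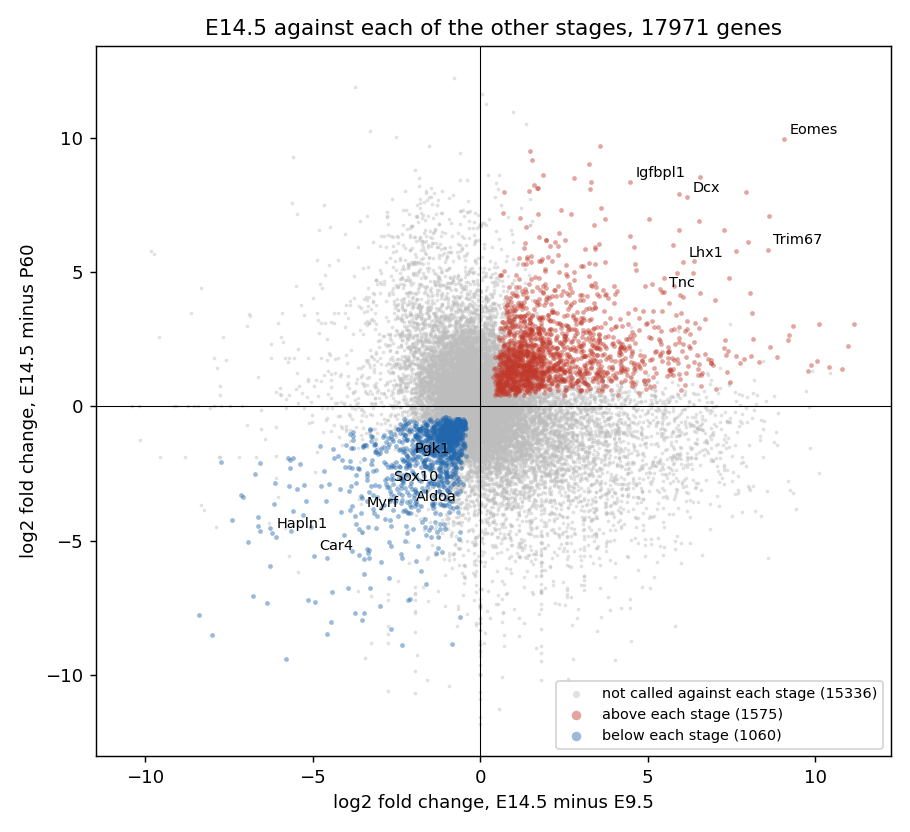
Log2 fold change of each tested gene at E14.5 against E9.5 (horizontal axis) and against P60 (vertical axis), with the 1575 genes above both stages and the 1060 below both in colour. Peaks lie in the upper right quadrant and dips in the lower left, and most genes lie in the remaining quadrants or near an axis.

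A typical peak was modest. Wdfy1, an endosomal adaptor and the gene with the median margin among those eligible for naming, was at 8.47, 11 and 10.8 CPM at E9.5, 20.4, 24.5 and 25.4 CPM at E14.5, and 7.77, 9.22 and 6.87 CPM at P60. All E14.5 libraries lay above the others, with a 2.32-fold margin (adjusted p = 0.00069). Rcl1, which acts in ribosomal RNA processing, was the matching dip, at 89.4, 84.3 and 83.1 CPM, then 23.9, 18.3 and 18.1, then 37.8, 30.6 and 40.5, a 1.81-fold margin (adjusted p = 0.0037), and its call was lost with the length trend removed (log2 margin -0.32). The peak just inside the threshold was Klhl28 (8.15 ± 2.07, 16.6 ± 6.15 and 5.36 ± 1.29 CPM at the 3 stages, mean ± SD, n = 3) and the gene just outside it was Zfp324 (16.7 ± 2.09, 26.6 ± 7.13 and 9.67 ± 0.855 CPM). For dips these were Zfas1 (109 ± 2.53, 45 ± 16.5 and 97.8 ± 43.4 CPM) and Trmt6 (99.5 ± 1.59, 33.4 ± 6.2 and 50.5 ± 10.5 CPM).

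The steepest peak belonged to Eomes (chromosome 9, 118478212 to 118486132, GRCm38), the T-box factor that marks intermediate progenitors of the cortex. Its expression was 0.435, 0.0332 and 0.16 CPM at E9.5, 125, 109 and 108 CPM at E14.5, and 0.0667, 0.206 and 0.0589 CPM at P60. It rested on 19 reads in all at E9.5, 11784 at E14.5 and 11 at P60. Eomes was therefore high in all E14.5 libraries and near the limit of detection in the other 6, and the margin was 537-fold (log2 fold change 9.07 ± 0.44 SE against E9.5, adjusted p = 1.7e-06). In whole tissue, fewer cells of a type and less RNA per cell cannot be told apart, here and in every result that follows.

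Dcx (X chromosome, 143855842 to 143933311), the microtubule protein of migrating neurons, was at 14.4, 15.7 and 22.9 CPM at E9.5, 880, 1518 and 1417 CPM at E14.5, and 3.9, 8.84 and 4.42 CPM at P60. The groups did not overlap, and the margin was 72.1-fold (adjusted p = 5e-06). Trim67, a brain ubiquitin ligase linked to netrin signalling, had 1, 0.564 and 0.543 CPM, then 267, 298 and 248 CPM, then 4.63, 4.67 and 5.01 CPM. Its 3 groups were tight and well apart, giving a 56.8-fold margin over P60 (log2 fold change 5.83 ± 0.21 SE, adjusted p = 5.2e-07).

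Of the 12 steepest peaks, 6 were transcription factors. The choice of these 12, like that of the 12 steepest dips, required libraries that did not overlap. Beside Eomes these were Sox14, Lhx1, Otp, Pou2f2 and Scrt2. Sox14, a factor of inhibitory neurons in the thalamus and midbrain, was at 0.234, 0.199 and 0.319 CPM, then 20.7, 20.3 and 23.2, then 0.7, 0.382 and 0.442, a 42.2-fold margin (adjusted p = 1.7e-06). Lhx1, a LIM homeodomain factor of several brainstem and cerebellar neuron classes, was at 0.402, 0.63 and 0.862 CPM, then 18.9, 50.3 and 58.8, then 1.33, 0.969 and 0.796. Lhx1 was lower in the first E14.5 library than in the other two, yet that library stayed far above all E9.5 and P60 values (41.4-fold margin, adjusted p = 2.4e-05). Otp, a homeodomain factor of neuroendocrine hypothalamic neurons, had a 31.0-fold margin, with 20.3, 26.9 and 27.9 CPM at E14.5 and at most 0.999 CPM elsewhere. Pou2f2, a POU factor, was at 81.6, 62.4 and 69.6 CPM at E14.5 and at 1.39 to 2.9 CPM in the other libraries (25.3-fold). Scrt2, a zinc finger repressor of newborn neurons, was at 138, 141 and 131 CPM at E14.5, 1.92 to 2.38 CPM at E9.5 and 5.19 to 10.5 CPM at P60 (17.9-fold, adjusted p = 3.2e-06).

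The remaining steep peaks were of other kinds. Igfbpl1, a secreted insulin-like growth factor binding protein relative found in newborn neurons, was at 27.9, 20.2 and 19.9 CPM, then 668, 420 and 420, then 1.6, 1.09 and 1.97 (22.2-fold, adjusted p = 4e-06). Stk32b, a kinase, was at 54.1, 83 and 71.5 CPM at E14.5 and at 1.98 to 3.82 CPM in the other libraries (22.2-fold). Tnc, a matrix glycoprotein of radial glia, was at 105, 156 and 118 CPM at E14.5, 1.76 to 3.68 CPM at E9.5 and 5.22 to 7.7 CPM at P60 (19-fold, adjusted p = 5.9e-06). Hbb-bt, an adult-type beta globin of red blood cells, also ranked among them and is described with the erythroid genes. In each of these, the lowest E14.5 library exceeded the highest other library several times over.

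**Figure D2:**
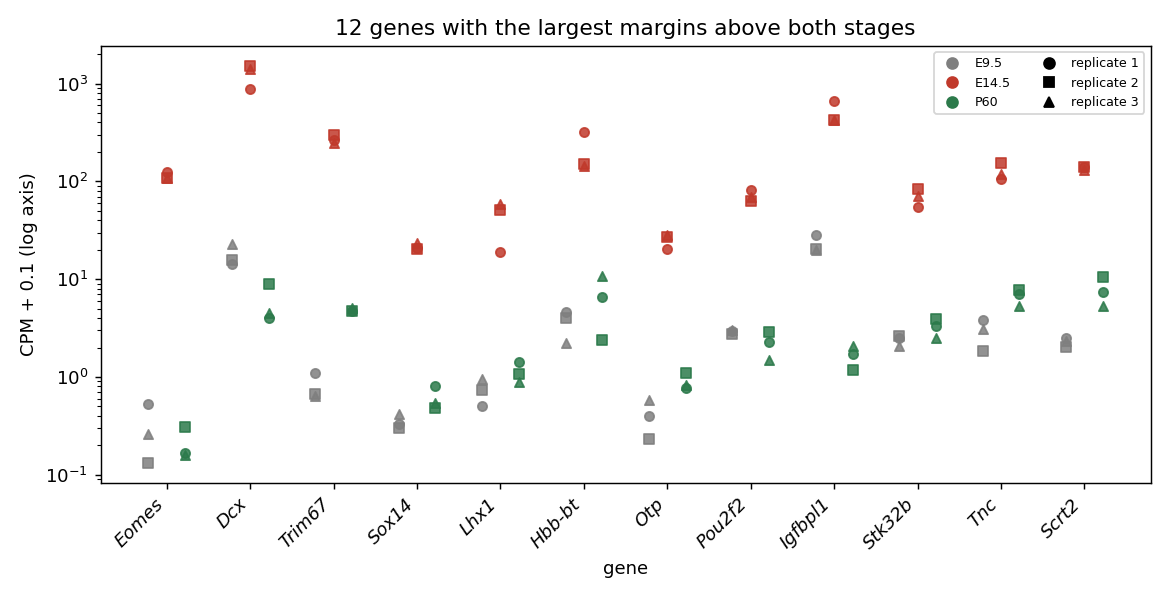
Expression (CPM + 0.1, log axis) of the 12 genes with the largest margins above both stages, with one point per library, coloured by stage and shaped by replicate number. All E14.5 points lie above the E9.5 and P60 points of the same gene, and Eomes is at 0.435 CPM or less in every other library.

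Of 15 markers of neuronal intermediate progenitors, 11 were above both stages (8.76% of all genes tested were) and 0 below, with a median contrast of 2.13 on the log2 scale against 0.14 over all genes. Neurog2, the proneural factor that starts cortical neuron production, was at 8.67, 9.22 and 7.72 CPM, then 115, 90.8 and 104, then 0.433, 0.676 and 0.707, a 12.1-fold margin (adjusted p = 1.7e-06). Insm1, a zinc finger factor that promotes delamination of progenitors from the ventricle, was at 11.9, 10.8 and 13.5 CPM, then 86.2, 86.9 and 81.2, then 3, 4 and 2.68 (7.02-fold, adjusted p = 3.8e-06). For both genes every E14.5 library lay above every other. The other called members were Neurod1, Hes6, Elavl4, Sstr2, Btg2, Mfng, Gadd45g and Dll3, which are given because they complete the count. Of the 4 not called, Neurog1 and Neurod4, both proneural factors, fell from E9.5 to E14.5 (log2 differences of -1.24, adjusted p = 0.001, and -0.75, adjusted p = 0.0055), and Rcor2, a corepressor, had a difference of -0.30 (adjusted p = 0.21).

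Radial glia and proliferation genes behaved differently. Of 20 radial glia genes, 6 were above both stages (30%, against 8.76% of all genes tested) and 0 below. Fabp7, the brain lipid-binding protein of radial glia, was at 43.8, 35 and 39.4 CPM, then 639, 478 and 444, then 95, 59.3 and 105 (6.01-fold, adjusted p = 3.9e-05). Id4, an inhibitor of basic helix-loop-helix factors, was at 141, 141 and 165 CPM at E14.5 against at most 38.8 CPM elsewhere (4.69-fold). The other called members were Tnc, Lhx2, Ptprz1 and Emx2. Pax6, the master factor of cortical radial glia, was not called above E9.5, at 87.6 CPM on average at E9.5, 72.1 at E14.5 and 10.4 at P60.

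Of 30 cell cycle genes, 2 were above both stages (6.67%, against 8.76% of all genes tested) and 1 below (3.33%, against 5.9%), while the median contrast was 1.26. The median difference was -1.86 from E9.5 and 3.95 from P60, so E14.5 lay between the stages for most of them and the contrast alone would have misread the list. Mki67, the proliferation antigen, was at 828 ± 103, 216 ± 20.8 and 0.485 ± 0.381 CPM. The pair above both stages were inhibitors of cyclin-dependent kinases. Cdkn1a (p21) was at 8.07, 7.76 and 7.34 CPM, then 21.9, 23.9 and 21.7, then 10.7, 11.7 and 9.43 (2.12-fold, adjusted p = 0.00034). Cdkn1b (p27) was at 38.2, 40.5 and 44.9 CPM, then 128, 131 and 124, then 73.8, 64.8 and 81.1 (1.74-fold, adjusted p = 0.0018). Neither gene overlapped between E14.5 and the other stages. Ccne1, the cyclin of S phase entry, was the single dip, at 142, 131 and 126 CPM, then 14.9, 10.1 and 10.8, then 32.6, 29.3 and 34.6 (2.69-fold, adjusted p = 0.0002).

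The largest share of peaks in any list was that of pan-neuronal transcription factors, 22 of 26 (84.6%, against 8.76% of all genes tested). None of them was below both stages, and the median contrast was 3.61. Lists and members were chosen with earlier results of these data known, so the ranking of lists is a description only. Myt1, a zinc finger factor that represses progenitor genes, was at 6.83, 7.76 and 8.14 CPM, then 96.8, 138 and 151, then 5.43, 8.63 and 5.63 (17.0-fold, adjusted p = 3.6e-06). All E14.5 libraries of Myt1 lay far above the others. Beside Myt1, Pou2f2 and Scrt2, the called members in order of margin were Nfia, Nfib, Nhlh2, Nfix, Bcl11a, Ebf3, Sox4, Pou3f3, Klf7, Sox11, St18, Myt1l, Nhlh1, Scrt1, Zfhx3, Zeb2, Pou3f1, Pou3f2 and Sox12. They include nuclear factor I proteins, SoxC factors and POU III factors. In these counts the margin was at least 2-fold for 18 of the 22.

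Factors of regional identity were counted in separate lists. Of 22 cortical projection neuron factors, 15 were above both stages (68.2%, against 8.76% of all genes tested). Bcl11b (Ctip2), a zinc finger factor of subcerebral neurons, was at 1.44, 0.697 and 0.67 CPM, then 268, 269 and 239, then 21.6, 33.1 and 15.8 (11.0-fold, adjusted p = 2.9e-05). Lhx9, a LIM factor of thalamus and pioneer neurons, was at 95.3, 106 and 135 CPM at E14.5 and at most 15.4 CPM elsewhere (7.44-fold). In both of them the E14.5 libraries stood apart.

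Of 26 genes listed with the ventral and inhibitory neuron factors, 20 were above both stages, 19 of them by at least 2-fold. The share above both was 76.9%, against 8.76% of all genes tested. The list includes Gad1, Gad2 and Slc32a1, which serve GABA synthesis and transport and are not factors. None of them was called, with means of 98.1, 105 and 46.8 CPM at E14.5 and 369, 139 and 83 CPM at P60. Gsx2, which patterns the lateral ganglionic eminence, was at 0.268, 0.398 and 0.607 CPM, then 6.48, 4.34 and 4.31, then 0.3, 0.206 and 0.354 (11.8-fold, adjusted p = 4.6e-05). Sp9, a zinc finger factor of striatal and interneuron precursors, was at 4.12, 4.25 and 3.64 CPM, then 32.5, 35.3 and 33.2, then 2.4, 4.32 and 2.12 (8.41-fold, adjusted p = 1.7e-05). The list also held the called Dlx1, Dlx2, Dlx5 and Dlx6, homeobox factors of inhibitory neuron precursors, and Lhx6, Lhx8 and Nkx2-1 of the medial ganglionic eminence. These last 7 are named for their shared territory, after their values were seen.

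Of 28 midbrain, hindbrain and cerebellar factors tested, 5 were above both stages (17.9%, against 8.76% of all genes tested) and 0 below. Barhl1, a homeobox factor of cerebellar granule cell precursors, was at 3.95, 4.54 and 4.37 CPM, then 33.1, 36.9 and 43.2, then 0.867, 0.558 and 0.53 (8.79-fold, adjusted p = 3.8e-06). Barhl2 was at 31.2, 24.3 and 30.6 CPM at E14.5 and at most 9.59 CPM elsewhere (3.67-fold, adjusted p = 0.00071). The median of this list was -0.83 against E9.5 and 4.44 against P60. Reads sufficed to test 4 of 17 Hox genes, and none of the 4 was called in either direction.

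Genes that build the axonal cytoskeleton were next. Of 34 microtubule and growth cone genes, 21 were above both stages (61.8%, against 8.76% of all genes tested) and 0 below. Tubb2b, a beta tubulin of young neurons, was at 401, 315 and 325 CPM, then 4634, 3529 and 3241, then 165, 190 and 166 (10.9-fold, adjusted p = 3.1e-06). Dpysl3 (CRMP4), a collapsin response mediator of the growth cone, was at 180, 195 and 184 CPM, then 1972, 2341 and 2232, then 31.4, 45.4 and 23.3 (11.7-fold, adjusted p = 6.4e-06). No E14.5 library of either gene came near the other stages. The called members further held Kif21b, Crmp1, Dclk2, Tubb3, Dpysl5, Mapt, Map1b, Dpysl4, Map6, Tuba1a, Stmn1, Marcks, Dpysl2, Kif21a, Kif5c, Gap43, Map2 and Kif3c.

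Axon guidance genes peaked on both the receptor and the ligand side. Of 28 receptors 14 were above both stages, and of 29 ligands 10, with 0 below in either list. These shares were 50 and 34.5%, against 8.76% of all genes tested. Epha3, an ephrin receptor, was at 6.59, 12.1 and 12.3 CPM, then 56.6, 105 and 101, then 4.67, 6.37 and 5.72 (8.45-fold, adjusted p = 5.9e-05). Dcc, the netrin receptor, was at 6.43, 11.5 and 9.86 CPM, then 26.8, 93.2 and 105, then 1.67, 3.41 and 0.884 (8.08-fold, adjusted p = 0.0026). In both genes the first E14.5 library was the lowest of its stage but above every E9.5 and P60 library. Plxna4, a semaphorin receptor subunit, was at 128, 207 and 185 CPM at E14.5 and at most 45.3 CPM elsewhere (5.70-fold).

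Among the ligands, Sema6c, a transmembrane semaphorin, was at 4.12, 2.82 and 3.45 CPM, then 68.5, 34.3 and 35.1, then 2.77, 3 and 2.06 (13.3-fold, adjusted p = 2e-05). Draxin, a secreted axon repellent that binds Dcc, was at 20.6, 21.1 and 19 CPM, then 169, 213 and 208, then 0.5, 0.91 and 0.737 (9.72-fold, adjusted p = 2.9e-06). Sema4g was at 102, 131 and 125 CPM at E14.5 and at most 18.6 CPM elsewhere (7.09-fold). All E14.5 values lay above the rest for the 3 ligands. For Sema6c the first E14.5 library was the highest, the opposite of its place for Epha3 and Dcc.

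Fewer axonal adhesion molecules peaked, 8 of 33 (24.2%, against 8.76% of all genes tested). The list median was 3.6 against E9.5 and 0.53 against P60. Mdga1, a lipid-anchored immunoglobulin protein of migrating neurons, was at 8.2, 11 and 9.96 CPM, then 145, 165 and 157, then 10.3, 15.1 and 6.78 (log2 margin 3.86, adjusted p = 8.8e-06). Cntn2 (TAG-1), an adhesion molecule of corticofugal axons, was at 7.23, 5.34 and 8.55 CPM, then 623, 584 and 564, then 112, 144 and 79.7 (5.28-fold, adjusted p = 5.8e-05). Cdh4, R-cadherin, was at 86.9, 153 and 136 CPM at E14.5 and at most 21.7 CPM elsewhere (6.80-fold). E14.5 was separate in all of them, and the adult level of Cntn2 stayed well above that of E9.5.

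Of 18 Reelin pathway and Cajal-Retzius genes, 6 were above both stages and 1 below (33.3 and 5.56%, against 8.76 and 5.9% of all genes tested). Reln, the secreted signal that positions cortical neurons, was at 12.9, 19.6 and 14.8 CPM, then 153, 221 and 201, then 24.4, 31.5 and 19.2 (7.65-fold, adjusted p = 1.9e-05). Lrp8, a Reelin receptor, was at 39.6, 56.1 and 50.5 CPM, then 139, 244 and 239, then 26.1, 35.1 and 23.4 (4.25-fold, adjusted p = 0.00022). Trp73, a p53 relative of Cajal-Retzius cells, was at 15.5, 15.6 and 17 CPM at E14.5 and at most 2.23 CPM elsewhere (9.06-fold). Reln, Lrp8 and Trp73 thus each peaked without overlap. Ndnf, a secreted factor also found in Cajal-Retzius cells, went the other way by a small margin (1.49-fold, adjusted p = 0.043). It was at 26.9, 31.5 and 28.2 CPM, then 5.88, 9.01 and 7.36, then 11.4, 10.8 and 10.9, and missed the threshold in 9 alternative fits. The other 11 members were called in neither direction, among them Vldlr, Calb2 and Cxcr4. Mean levels of Vldlr were 66.9 CPM at E14.5 and 62.4 CPM at P60. Those of Calb2 were 45.1 CPM at E14.5 and 151 CPM at P60. Those of Cxcr4 were 36.1 CPM at E14.5 and 50.6 CPM at E9.5.

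Neuronal RNA-binding proteins, which set neuron-specific splicing and mRNA stability, gave 12 peaks of 28 and 0 dips. The share of peaks was 42.9%, against 8.76% of all genes tested. Elavl3 (HuC), an early neuronal mRNA stabiliser, was at 31.7, 22.9 and 30.1 CPM, then 756, 673 and 622, then 105, 147 and 75.1 (6.27-fold, adjusted p = 4.2e-05). Srrm4, the activator of neuronal microexons, was at 20.4, 20.3 and 22.6 CPM, then 102, 139 and 137, then 7.7, 13.8 and 4.36 (5.96-fold, adjusted p = 0.00035). Nova2, a splicing regulator of axon guidance genes, was at 138, 161 and 144 CPM at E14.5 and at most 29.2 CPM elsewhere (5.37-fold). None of these overlapped between E14.5 and the other stages.

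Promoters of this list are shown because 12 of its members peaked together and a neurogenic bHLH motif occurs in some of them. The E-box CAGCTG, which proneural bHLH factors can bind, was searched on both strands (it is its own reverse complement) in the 250 bases before the RefSeq start. It was present in 3 of 11 called members with a window, against 12.4% of 12948 windows of all genes tested, 15.9% of 1121 windows of peaks and 12.1% of 815 windows of dips. The members were Elavl3, Nova1 and Celf3 (Celf3 at 352 ± 11.2 CPM at E14.5, 19.2 ± 0.74 at E9.5 and 77.1 ± 10.9 at P60). The motif and the windows shown were picked after the values were seen, and a match is a description of the letters, not a binding site. The windows below are from RefSeq on GRCm38.p6, 5′ to 3′ on the gene's strand, with matches in capitals. Elavl3 lies at chr9:22052024-22052273 on the minus strand and Celf3 at chr3:94478045-94478294 on the plus strand.
Elavl3: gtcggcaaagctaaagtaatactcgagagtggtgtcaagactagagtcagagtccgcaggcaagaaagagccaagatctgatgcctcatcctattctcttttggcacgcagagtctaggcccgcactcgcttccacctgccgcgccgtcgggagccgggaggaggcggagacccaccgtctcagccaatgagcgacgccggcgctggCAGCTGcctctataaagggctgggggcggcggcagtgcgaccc
Celf3: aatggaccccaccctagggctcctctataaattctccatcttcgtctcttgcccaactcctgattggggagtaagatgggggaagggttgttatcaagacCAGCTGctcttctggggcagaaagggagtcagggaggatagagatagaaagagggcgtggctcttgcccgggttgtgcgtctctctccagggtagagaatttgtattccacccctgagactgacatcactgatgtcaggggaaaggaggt

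For receptors, channels and synaptic proteins the median difference of E14.5 from P60 was -1.16, -0.67 and -0.80 on the log2 scale. Members of each list lay on both sides of P60. Above both stages were 4 of 30 ionotropic receptor genes, 5 of 28 voltage-gated channels and 4 of 30 synaptic proteins, with 0 below in each list. These shares were 13.3, 17.9 and 13.3%, against 8.76% over all genes tested. Grik3, a kainate receptor subunit, was at 12.4, 7.66 and 8.87 CPM, then 117, 190 and 162, then 17.2, 31.2 and 11.3 (7.83-fold, adjusted p = 0.00023). Scn3a, the embryonic sodium channel, was at 1.34, 1.33 and 1.21 CPM, then 52, 122 and 123, then 13.1, 20.1 and 12.4 (6.53-fold, adjusted p = 0.0002). Cacna1h, a low-threshold calcium channel, was at 90.3, 145 and 139 CPM at E14.5 and at most 25.1 CPM elsewhere (6.49-fold). Each was separate from both stages.

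Grin2b, the NMDA receptor subunit that dominates before birth, was at 0.636, 0.0995 and 0.0958 CPM, then 93.1, 162 and 132, then 33.7, 58.2 and 17.5 (3.54-fold over P60, adjusted p = 0.017). Its log2 margin of 1.82 became 1.63 without the second E14.5 library and 1.78 without the first P60 library, and neither value passed the threshold. The call was also lost with DESeq2 (adjusted p = 0.09) and with edgeR without the filter (adjusted p = 0.055). Shank1, a postsynaptic scaffold, was at 195, 224 and 197 CPM at E14.5 and at most 82.2 CPM elsewhere (3.35-fold). Nlgn2, the neuroligin of inhibitory synapses, was at 103, 99.6 and 99.8 CPM, then 307, 318 and 299, then 79.5, 123 and 55.1 (3.06-fold, adjusted p = 0.00094). In contrast, Snap25, a vesicle fusion protein and uncalled, was at 96.4 to 115 CPM at E14.5 and 3072 to 3199 CPM at P60.

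**Figure D3:**
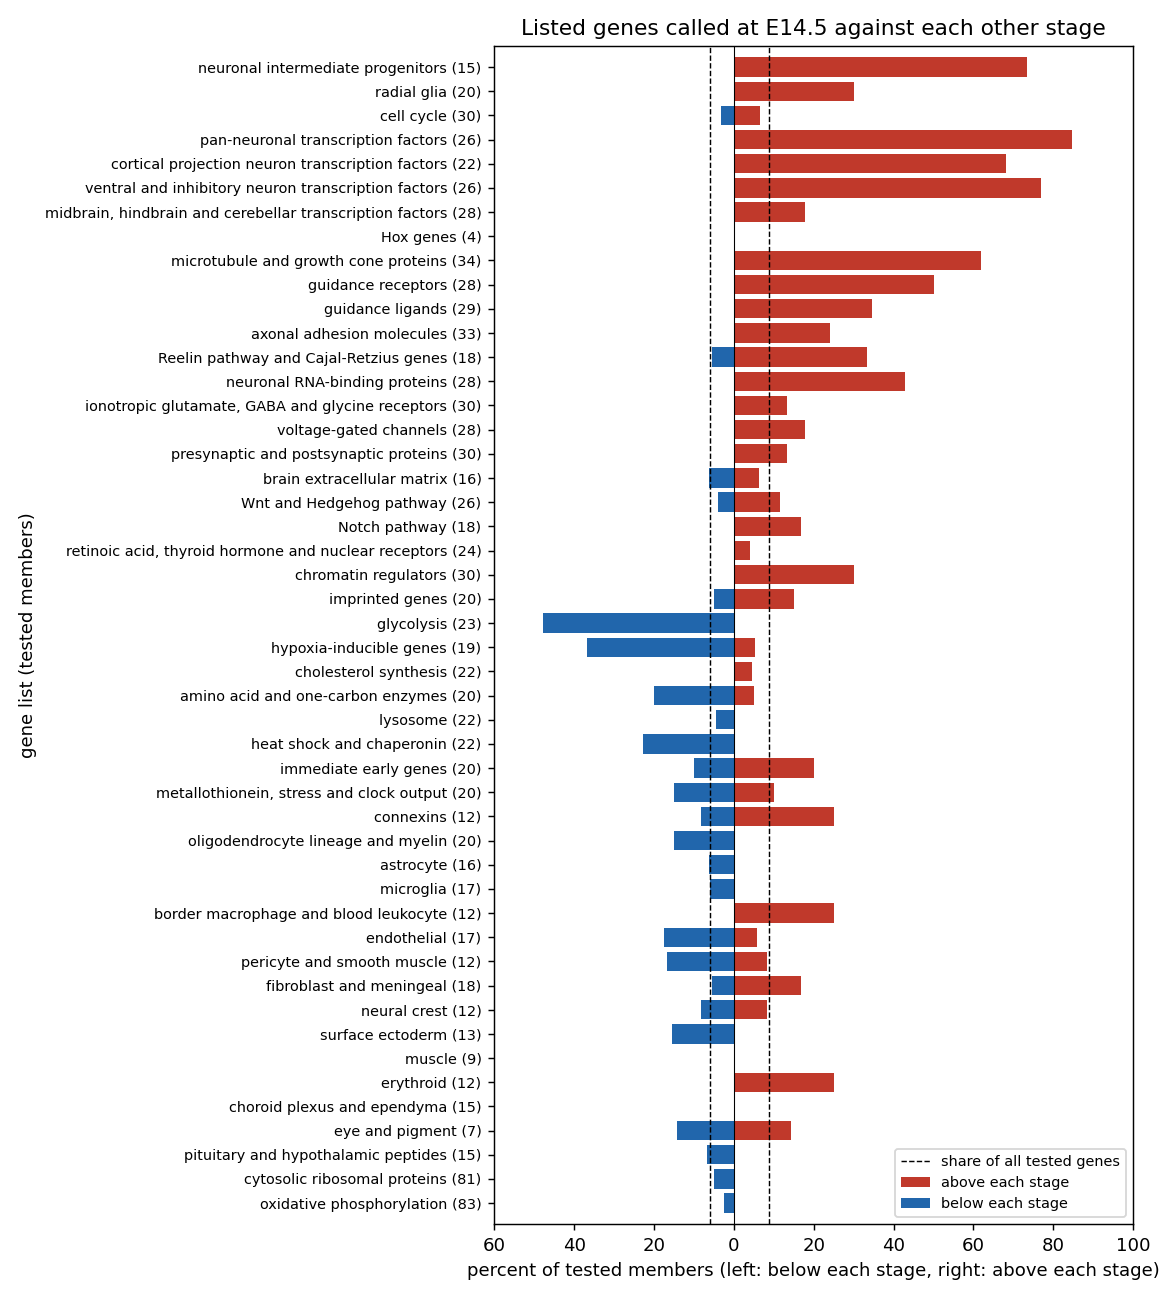
Percent of the tested members of each gene list that were above both stages (right) or below both stages (left), with the shares over all genes tested as dashed lines (8.76% above, 5.9% below). The lists of pan-neuronal factors, ventral and inhibitory neuron factors, intermediate progenitors, cortical projection neuron factors and microtubule proteins extend furthest above, and glycolysis and hypoxia-inducible genes furthest below.

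Signalling lists held a few peaks and dips each. Of 26 Wnt and Hedgehog genes 3 peaked (11.5%, against 8.76% of all genes tested) and 1 dipped (3.85%, against 5.9%), shares near those of all genes. Wnt7a, a ligand for neural progenitors and brain vessels, was at 10.8, 8.26 and 9.16 CPM, then 37.8, 35.7 and 32.7, then 11.4, 12.3 and 10.6 (3.10-fold, adjusted p = 4e-05). Wnt7b was at 117, 129 and 114 CPM at E14.5 and at most 54.5 CPM elsewhere (2.61-fold), and the receptor Fzd1 at 77.6, 83 and 95.8 CPM against at most 37.1 CPM (2.42-fold). Both Wnt7 ligands were thus highest at E14.5, without overlap. Hhip, which sequesters Hedgehog ligands, dipped (4.79, 4.54 and 4.34 CPM, then 1.6, 1.85 and 1.12, then 2.9, 4.99 and 3.01, 2.38-fold, adjusted p = 0.0086).

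In the Notch pathway 3 of 18 peaked (16.7%, against 8.76% of all genes tested) and 0 dipped. The peaks were Rfng, a glycosyltransferase that modifies Notch (2.48-fold, adjusted p = 0.001), the ligand Jag2 (2.19-fold, adjusted p = 0.0079) and Numbl, a Notch antagonist (1.49-fold, adjusted p = 0.036). Numbl lost its call in 10 other fits, 7 of them with 1 library left out, and its difference from P60 changed sign (log2 difference of -0.055 in place of 0.58) when the length trend described at the end was removed. Of 24 nuclear receptor and retinoid genes 1 peaked (4.17%, against 8.76% of all genes tested) and 0 dipped. The peak was the orphan receptor Esrrg, at 1.77, 1.43 and 1.72 CPM, then 24.4, 49 and 45.9, then 12.5, 21.5 and 11.1 (2.65-fold, adjusted p = 0.0079). The E14.5 values of Esrrg stayed above all others. The list gave 3 peaks without the third P60 library, and 2 without the second P60 library, with library totals or with the length trend removed. Of 16 brain matrix genes 1 peaked and 1 dipped (6.25% each, against 8.76 and 5.9% of all genes tested). Ncan, the chondroitin sulfate proteoglycan neurocan, peaked (8.8, 6.96 and 7.53 CPM, then 579, 576 and 527, then 70, 107 and 50.6, 7.40-fold, adjusted p = 2.8e-05). Its partner Hapln1 is among the dips.

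Of 30 chromatin regulators 9 peaked (30%, against 8.76% of all genes tested) and 0 dipped. The largest margins were those of some subunits of the BAF nucleosome remodelling complex. Dpf3, one of its exchangeable subunits, was at 2.85, 1.26 and 1.63 CPM, then 13.1, 25.3 and 26.3, then 4.1, 4.2 and 4.18 (5.17-fold, adjusted p = 0.00047). Dpf1 was at 20.9, 15 and 15.6 CPM, then 227, 138 and 131, then 36, 42.4 and 38.4 (4.25-fold, adjusted p = 0.00012). Smarcc2 (BAF170) was at 652, 592 and 575 CPM at E14.5 and at most 216 CPM elsewhere (3.70-fold, adjusted p = 9.7e-05). All were separate, and Auts2, Chd3, Chd5, Tet2 and Bcl7a were also above both stages. Other BAF subunits in the list were uncalled, among them Actl6b, Smarcd3 and Smarca2 (log2 margins of 0.41, 0.12 and 0.12). Mean levels of Actl6b, a neuronal subunit, were 0.473 CPM at E9.5, 145 at E14.5 and 109 at P60.

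Of 20 imprinted genes 3 peaked and 1 dipped (15 and 5%, against 8.76 and 5.9% of all genes tested). Nnat, a small membrane protein of young neurons, was at 419, 339 and 364 CPM, then 3995, 3310 and 3143, then 454, 426 and 572 (7.19-fold, adjusted p = 5e-06). Magel2, of the Prader-Willi region, was at 65.8, 76.5 and 86 CPM at E14.5 and at most 17.6 CPM elsewhere (4.99-fold). Meg3, a maternally expressed long noncoding RNA, was at 166, 180 and 190 CPM, then 828, 827 and 837, then 242, 234 and 246 (3.45-fold, adjusted p = 1e-05). Meg3 varied little between the libraries of a stage. Impact, a translational regulator, dipped, at 71.1, 53.1 and 80 CPM, then 29, 32.1 and 34.8, then 393, 380 and 434 (2.13-fold, adjusted p = 0.0011).

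The steepest dips included genes known from glia, vessels and lipid metabolism. Car4 (chromosome 11, 84957786 to 84966044), a membrane carbonic anhydrase of brain capillaries, had the largest margin among eligible dips. Its values were 52.9, 53.7 and 41.2 CPM at E9.5, 1.48, 2.04 and 1.21 CPM at E14.5, and 78.2, 64.2 and 82.2 CPM at P60. It was low in all E14.5 libraries and of similar height before and after, a 31.1-fold margin (log2 fold change -4.96 ± 0.23 SE against E9.5, adjusted p = 1.7e-06). Hapln1, the link protein that ties hyaluronan to proteoglycans, was at 59.2, 85 and 89.7 CPM, then 0.543, 0.839 and 1.73, then 26.6, 25.9 and 30.2 (26.4-fold, adjusted p = 1e-05). Ell2, a transcription elongation factor, was at 0.754, 1.54 and 2.07 CPM at E14.5 and at least 17.8 CPM in every other library (13-fold).

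Several steep dips are known from oligodendrocytes, the myelinating glia. Myrf, the transcription factor of myelin genes, was at 26.8, 26.7 and 28 CPM, then 1.6, 2.8 and 2.47, then 34.7, 51 and 21.6 (11.8-fold, adjusted p = 3.4e-05). Nkx6-2, a homeobox factor of the ventral neural tube and of oligodendrocytes, was at 29.7, 22.6 and 21.1 CPM, then 3.32, 2.38 and 3.05, then 54.2, 32.2 and 60.4 (8.39-fold, adjusted p = 2.8e-05). Sox10, a factor shared by neural crest and the oligodendrocyte lineage, was at 45.7, 27.3 and 29.4 CPM, then 3.41, 5.09 and 6.9, then 37.4, 56.9 and 28.1 (6.64-fold, adjusted p = 0.00027). Each was low in all E14.5 libraries and high at both other stages.

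The fixed list of 20 oligodendrocyte and myelin genes gave 3 dips (15%, against 5.9% of all genes tested), Sox10 and Erbb3 among them, and 0 peaks. Erbb3, a neuregulin receptor, was at 33.7, 29.2 and 28.9 CPM, then 0.874, 2.18 and 3.42, then 9.9, 13.1 and 8.96 (4.92-fold, adjusted p = 0.0013). Neural crest and surface ectoderm genes were also higher at E9.5, and whether those tissues supply the E9.5 reads of Sox10 and Erbb3 was not tested. The summed surface ectoderm list took 0.0263 to 0.0382% of counts at E9.5 and at most 0.00177% at the later stages.

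Further steep dips had other known roles. Trh, thyrotropin-releasing hormone, was at 29.8, 32.5 and 26.4 CPM, then 2.86, 2.52 and 2.33, then 21.9, 18.8 and 42.3 (10.8-fold, adjusted p = 3.1e-05). Scd1, a fatty acid desaturase, was at 124, 142 and 120 CPM, then 17.8, 21.3 and 20.4, then 229, 248 and 199 (6.48-fold, adjusted p = 3.1e-06). Maob, the monoamine oxidase of astrocytes, was at 13.1 to 16.9 CPM, then 3.17, 2.18 and 1.75, then 44.8, 59.7 and 51.2 (6.26-fold, adjusted p = 2.7e-05). In the list of 16 astrocyte genes only Gja1 dipped (6.25%, against 5.9% of all genes tested) and 0 peaked. The median of that list was 2.85 against E9.5 and -3.82 against P60. Ccn2, a secreted matrix-associated protein, was at 5.94, 4.39 and 3.97 CPM at E14.5 and at least 28.8 CPM elsewhere (6.32-fold), and Tagln, a smooth muscle actin-binding protein, at 5.55, 4.76 and 4.89 CPM against at least 19.4 CPM (5.32-fold).

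Tmem119, commonly used as a microglial marker, was at 19.1, 18.4 and 19.3 CPM, then 2.92, 3.22 and 4.86, then 27.1, 34.7 and 28.4 (5.17-fold, adjusted p = 2.7e-05). It was the only dip among 17 microglial genes (5.88%, against 5.9% of all genes tested). Its E9.5 level did not go with other microglial markers, since P2ry12 was at 0.0335 to 0.0663 CPM and C1qa at 0 to 0.234 CPM in those libraries. The reads of Tmem119 at E9.5 therefore came with defining microglial markers near 0.

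**Figure D4:**
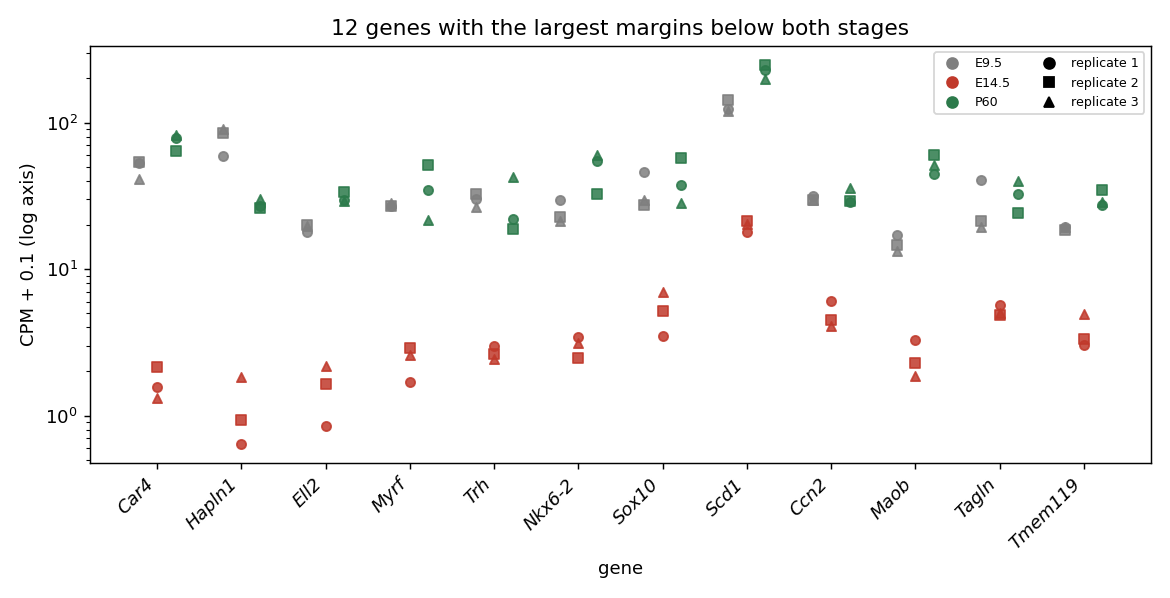
Expression (CPM + 0.1, log axis) of the 12 genes with the largest margins below both stages, with one point per library, coloured by stage and shaped by replicate number. All E14.5 points lie below the E9.5 and P60 points of the same gene, and Car4 and Hapln1 are near 1 CPM at E14.5.

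Glycolysis was the list with the largest share of dips, 11 of 23 below both stages and 0 above, with a median contrast of -1.34. Over all genes tested 5.9% dipped. As for peaks, this ranking of lists is a description, since lists and members were chosen with earlier results known. The glycolysis list's summed share of all counts was 1.55, 1.35 and 1.31% at E9.5. At E14.5 it was 0.471, 0.388 and 0.383%, and at P60 1.54, 1.44 and 1.55%. The list therefore took a similar share of the library before and after, and a smaller share in every E14.5 library. Aldoa, the aldolase of muscle and brain, was at 1300, 1048 and 989 CPM, then 320, 238 and 232, then 3506, 3232 and 3737 (4.22-fold, adjusted p = 3.1e-05). Pgk1, phosphoglycerate kinase, was at 465, 418 and 380 CPM, then 114, 86.5 and 88.6, then 387, 306 and 414 (3.83-fold, adjusted p = 3.9e-05). Pgam1, phosphoglycerate mutase, was at 148, 179 and 166 CPM, then 25.5, 43.2 and 40.4, then 135, 127 and 136 (3.64-fold, adjusted p = 9e-05). None overlapped, and the other called members were Tpi1, Slc16a1, Slc2a3, Eno1, Gpi1, Ldha, Gapdh and Pkm.

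Most steps from hexose to lactate were thus represented among the dips, with the transporters of glucose (Slc2a3) and lactate (Slc16a1) at the ends. Hexokinase (Hk1, Hk2) and phosphofructokinase (Pfkl, Pfkm, Pfkp) genes were not called. Aldoc, Eno2 and Ldhb, also uncalled, rose from means of 3.38, 4.85 and 63.2 CPM at E9.5 to 114, 48.6 and 188 at E14.5. Their P60 means were 1934, 1375 and 1242 CPM. Uncalled Pfkl and Slc2a1 were lowest at E14.5 (log2 margins of -0.33 and -0.29). Ldha, the lactate dehydrogenase subunit that favours lactate, was at 2767, 2483 and 2340 CPM, then 329, 244 and 242, then 591, 534 and 673 (2.21-fold, adjusted p = 0.00097). Gapdh, often used as a reference gene, was at 1588, 1342 and 1322 CPM, then 503, 402 and 385, then 854, 930 and 801 (2.00-fold, adjusted p = 0.0013). Both lay below every other library at E14.5, and both are given after their values were seen. Several of these genes have processed pseudogenes, so reads may have been split between copies. The count of dips was 11 or 12 in every alternative fit.

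Of 19 hypoxia-inducible genes 7 dipped and 1 peaked (36.8 and 5.26%, against 5.9 and 8.76% of all genes tested). The median contrast was -0.17. P4ha2, a collagen prolyl hydroxylase, was at 28, 20 and 22.1 CPM, then 6.51, 5.74 and 6.99, then 13.3, 15 and 15.3 (2.27-fold, adjusted p = 0.00064). Higd1a, a mitochondrial protein, was at 71.9, 56.5 and 50.4 CPM, then 37.4, 25.9 and 25.3, then 187, 124 and 195 (2.02-fold, adjusted p = 0.011). Car9, a carbonic anhydrase, rested on few reads, 33 in all at E14.5 against 91 and 128. The other dips were Bnip3, Pdk1, P4ha1 and Car12. Ddit4, an inhibitor of mTOR signalling, was above both stages (43, 35.9 and 38.5 CPM, then 116, 113 and 109, then 80.9, 62.9 and 78.9, 1.51-fold, adjusted p = 0.013). The number of dips was 4 without the second E14.5 library and 4 without the third. Higd1a lost its call without either of them (adjusted p = 0.055 and 0.054 by edgeR), and Car9 without any library but the first or the second P60 one. Ddit4 lost its call under upper-quartile scaling. Vegfa, a vascular growth factor and a classic member, was not called, at 83.2, 60.9 and 39.6 CPM on average.

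Promoters of 3 glycolytic dips are shown because they contain the ACGTG core of the hypoxia response element. The core was searched on both strands, so CACGT counts as well. It was present in 4 of 10 glycolytic dips with a window (Ldha, Pgam1, Pgk1 and Slc16a1) and in 4 of 7 hypoxia-inducible dips (Bnip3, Car9, P4ha1 and P4ha2). The share was 20.7% over all windows, 17.4% over peaks and 19.6% over dips, so dips as a whole did not hold the core more often. In the Ldha window the palindrome CACGTG contains overlapping matches on both strands. The motif was chosen after the values were seen. Pgk1 lies at chrX:106186850-106187099, Pgam1 at chr19:41911621-41911870 and Ldha at chr7:46845554-46845803, all on the plus strand of GRCm38.p6 and upstream of the RefSeq start, with matches in capitals.
Pgk1: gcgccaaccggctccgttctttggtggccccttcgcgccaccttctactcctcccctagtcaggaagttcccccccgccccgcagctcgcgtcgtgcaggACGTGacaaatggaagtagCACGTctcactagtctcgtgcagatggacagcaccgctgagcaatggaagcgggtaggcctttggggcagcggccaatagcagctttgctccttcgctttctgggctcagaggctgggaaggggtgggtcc
Pgam1: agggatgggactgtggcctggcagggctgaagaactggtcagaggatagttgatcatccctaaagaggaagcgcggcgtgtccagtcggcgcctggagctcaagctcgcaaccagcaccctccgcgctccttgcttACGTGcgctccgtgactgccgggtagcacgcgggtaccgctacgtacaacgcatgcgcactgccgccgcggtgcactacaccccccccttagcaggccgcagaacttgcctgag
Ldha: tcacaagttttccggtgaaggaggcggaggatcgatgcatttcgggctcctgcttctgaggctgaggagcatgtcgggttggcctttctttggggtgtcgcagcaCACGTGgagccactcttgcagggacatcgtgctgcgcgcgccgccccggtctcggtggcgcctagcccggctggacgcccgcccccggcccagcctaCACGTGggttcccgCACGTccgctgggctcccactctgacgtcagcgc

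Smaller metabolic and stress groups held a few dips each. Of 20 amino acid and one-carbon enzymes 4 dipped and 1 peaked (20 and 5%, against 5.9 and 8.76% of all genes tested). Asns, asparagine synthetase, was at 77.6, 76.2 and 70.5 CPM, then 38.1, 31.4 and 29.5, then 178, 187 and 183 (2.26-fold, adjusted p = 0.00018). Mthfd1l, a mitochondrial folate enzyme, was at 106, 104 and 99.3 CPM, then 10.2, 11.1 and 10.6, then 17.6, 22.1 and 18.2 (1.82-fold, adjusted p = 0.0012). Phgdh, the entry enzyme of serine synthesis, and Psat1, the next enzyme of that pathway, were the others, and Phgdh lost its call without the second or the third E14.5 library. Of 22 lysosomal genes 1 dipped (4.55%, against 5.9% of all genes tested), Ctsl, cathepsin L (2.17-fold, adjusted p = 0.00031). E14.5 was the low point without overlap for Asns, Mthfd1l and Ctsl.

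Of 22 heat shock and chaperonin genes 5 dipped (22.7%, against 5.9% of all genes tested), Hspa1b, Hspe1, Hsph1, Hspa8 and Dnajb1. Hsph1, a cochaperone of Hsp70, was at 389, 417 and 409 CPM, then 186, 192 and 190, then 321, 384 and 305 (1.78-fold, adjusted p = 0.0015). The number of dips was 2 without the second or the third E14.5 library or the first P60 library, and 3 without the first E9.5 or the third P60 library. Of 20 metallothionein, stress and clock output genes 3 dipped and 2 peaked (15 and 10%, against 5.9 and 8.76% of all genes tested). Ciart, a repressor of the circadian clock, was at 6.69, 6.3 and 5.24 CPM, then 2.02, 1.15 and 1.5, then 16.8, 17.7 and 15.4 (3.91-fold, adjusted p = 0.00014), and Per3, a clock gene, was at 6.09, 7.3 and 5.52 CPM at E14.5 against at least 10.4 CPM elsewhere (2.18-fold). Mt2, a metallothionein, was at 11.8, 5.85 and 6.1 CPM at E14.5 against at least 21.6 CPM elsewhere (3.11-fold). This list gave 5 dips without the first E14.5 library, with DESeq2 and with the replicate block. The labels give no time of day for any collection.

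Of 20 immediate early genes 4 peaked and 2 dipped (20 and 10%, against 8.76 and 5.9% of all genes tested). Btg1, an antiproliferative factor, was at 40.6, 31.8 and 36.6 CPM, then 129, 95.8 and 96.4, then 21.4, 22.9 and 25.8 (2.95-fold, adjusted p = 0.00011). Dusp1, a MAP kinase phosphatase, was at 35.6, 37.5 and 34.5 CPM at E14.5 and at most 22.3 CPM elsewhere (1.76-fold). Atf3, a stress-induced factor, dipped, at 4.85, 4.64 and 4.28 CPM, then 0.904, 1.03 and 0.978, then 2.07, 1.29 and 2.83 (2.12-fold, adjusted p = 0.024). Atf3 lost its call without any 1 of the E14.5 libraries (adjusted p of 0.058, 0.07 and 0.08 by edgeR), without the first or the third P60 library (0.07 and 0.098), and with the length trend removed (0.18). The list thus split, and its count of peaks was 2 without the third E9.5, the first E14.5, or the first or the third P60 library, and 2 under both median-of-ratios and upper-quartile scaling.

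Counts of dips among ribosomal protein and oxidative phosphorylation genes changed with the library left out and with the fit. Of 81 ribosomal protein genes tested, 4 dipped (Rpl22l1, Rps25, Rpl9 and Rpl3), with a median contrast of -0.66. Of 83 oxidative phosphorylation genes 2 dipped (Sdhd and Atp5b), with a median of -0.89. These shares, 4.94 and 2.41%, compare with 5.9% of all genes tested. The summed ribosomal share of counts was 6.16, 5.01 and 4.84% at E9.5. At E14.5 it was 4.05, 2.37 and 2.35%, and at P60 3.76, 2.26 and 4.07%. The first E14.5 library thus stood above the other two, and the second P60 library below its own stage. Without the first E14.5 library 27 ribosomal genes dipped, without the second P60 library 12, and without the second or the third E14.5 library or the first P60 library 1, while the third P60 library left 2. For oxidative phosphorylation the count was 7 without the first E14.5 library, 4 without the second P60 library, 1 without the third, and 0 without any other single library. Ribosomal dips numbered 11 with DESeq2, 11 with the replicate block and 7 with the length trend removed. Oxidative phosphorylation dips numbered 6 with DESeq2, 4 under median-of-ratios scaling, 7 with the length trend removed, and 1 with library totals or without the filter. Rpl22l1, a paralogue of Rpl22, was at 134, 131 and 118 CPM, then 63.8, 36.7 and 39.8, then 159, 91.9 and 187 (2.73-fold, adjusted p = 0.004).

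Blood, vessel and macrophage genes moved in separate directions. Of 12 erythroid genes tested 3 peaked, all globins (25%, against 8.76% of all genes tested). Hbb-bt was at 4.52, 3.91 and 2.14 CPM, then 322, 150 and 142, then 6.43, 2.29 and 10.7 (31.6-fold, adjusted p = 0.00016). Hbb-bs, its near-identical neighbour, was at 8.2, 6.6 and 4.12 CPM, then 683, 355 and 318, then 51.6, 18.3 and 80.7 (9-fold, adjusted p = 0.0014). Hba-a2, an alpha globin, was at 56, 53.6 and 40.5 CPM, then 254, 129 and 121, then 5.6, 2.53 and 10.5 (3.36-fold, adjusted p = 0.017), and missed the threshold without the second or the third E9.5 library (log2 margins of 1.80 and 1.61). In all of them the first E14.5 library was the highest of its stage. Reads of the paired globin copies may have been divided between them.

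The whole erythroid list took 0.439 to 0.587% of counts at E9.5, 0.107 to 0.201% at E14.5 and at most 0.0115% at P60. Most of the E9.5 share came from the primitive globins, with Hbb-bh1 at 1841, 1899 and 1396 CPM, then 1.96, 1.2 and 2.56, then 0.0667, 0 and 0.0295. Alas2, the heme enzyme of red cell precursors, was at 42.3 to 56 CPM at E9.5, 18.9 to 21.7 at E14.5 and 0.617 to 1 at P60, a different order from that of the adult-type globins. By the labels, P60 animals were perfused with saline before dissection.

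Of 12 border macrophage and leukocyte genes tested, 3 peaked (25%, against 8.76% of all genes tested) and 9 were uncalled. The list median was 4.67 against E9.5 and -0.55 against P60. Lyve1, a hyaluronan receptor, was at 0, 0.166 and 0.0958 CPM, then 3.26, 5.93 and 5.09, then 0.767, 0.94 and 0.265 (7.23-fold, adjusted p = 0.002). Mrc1, the mannose receptor CD206, was at 0.669, 0.763 and 0.798 CPM, then 14, 18.6 and 15.6, then 2.83, 4.58 and 3.3 (4.49-fold, adjusted p = 5.9e-05). F13a1, coagulation factor XIII A, was at 10.8, 16.8 and 13.4 CPM at E14.5 and at most 3.67 CPM elsewhere (4.15-fold, adjusted p = 0.00012). All are genes of border-associated macrophages, each was highest in every E14.5 library, and the count was 3 in every alternative fit. The microglial list had a median of 4.02 against E9.5 and -3.24 against P60, between the stages.

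Of 17 endothelial genes 3 dipped and 1 peaked (17.6 and 5.88%, against 5.9 and 8.76% of all genes tested). Plvap, a diaphragm protein of fenestrated vessels, was at 53.1, 44.5 and 43.6 CPM, then 7.27, 5.74 and 7.91, then 14, 16.4 and 16.9 (2.26-fold, adjusted p = 0.00061). Mfsd2a, the lipid transporter of barrier endothelium, was above both stages, at 23.2, 18.2 and 18.6 CPM, then 45.7, 35.4 and 32.8, then 21.1, 19.3 and 15.5 (1.90-fold, adjusted p = 0.005). These vessel genes did not overlap between E14.5 and the rest, but Egfl7 and Emcn lost their call without the second or the third E14.5 library, which left 1 endothelial dip. Of 12 connexin and pannexin genes 3 peaked (25%) and 1 dipped (8.33%). Gjd2, the neuronal connexin 36, was at 18.9, 25.3 and 24.2 CPM at E14.5 and 8.27, 10.3 and 8.57 at P60 (2.52-fold, adjusted p = 0.00074), with 2 reads in all at E9.5. Gja1, connexin 43 of astrocytes and radial glia, dipped, at 272, 355 and 336 CPM, then 61.3, 103 and 107, then 180, 231 and 184 (2.19-fold, adjusted p = 0.0047).

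Of 12 pericyte and smooth muscle genes 1 peaked and 2 dipped (8.33 and 16.7%, against 8.76 and 5.9% of all genes tested). Abcc9, a potassium channel subunit of pericytes, peaked (4.69, 5.21 and 6.45 CPM, then 11.6, 26.8 and 23.1, then 3.87, 6.17 and 3.74, 3.77-fold, adjusted p = 0.0016), and Acta2 and Tagln dipped. Acta2, smooth muscle actin, was at 67.3 CPM in the first E9.5 library and 15.9 and 14.7 CPM in the others, and it missed the threshold when any E14.5 or P60 library was left out. Fibroblast and meningeal genes gave 3 peaks and 1 dip of 18 (16.7 and 5.56%, against 8.76 and 5.9% of all genes tested). Col6a3, a collagen VI chain, was at 2.24, 3.58 and 3.8 CPM, then 12.3, 32.1 and 32.1, then 1.57, 1.73 and 0.973 (7.95-fold, adjusted p = 0.00033). The summed fibroblast list took 0.177 to 0.207% of counts at E9.5, 0.101 to 0.17% at E14.5 and 0.159 to 0.199% at P60. Collagen VI was thus highest at E14.5 while the list as a whole was not, and 5 members peaked without the first E14.5 library. No gene of the choroid plexus and ependyma list (15 tested) or the muscle list (9 tested) was called in either direction.

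Peaks came from longer genes than dips. The median genomic span was 27.7 kb for peaks, 19.7 kb for dips and 20.7 kb for all genes tested, and the median merged exon length was 4968, 3556 and 3974 bases. Genes of 100 kb or more made up 23.4% of peaks, 9.27% of dips and 13.5% of all genes tested. By exon length, 14% of genes of 8 kb or more peaked and 2.82% dipped, against 4.99 and 7.16% of genes of 1 to 2 kb. The median contrast ran from -0.25 at 1 to 2 kb to 0.59 at 8 kb or more. The trend lay in the comparison with P60, whose median ran from -0.63 to 0.87, while that with E9.5 stayed between -0.17 and 0.09 in all length classes. By biotype, 86.7% of peaks, 95.5% of dips and 86.1% of all genes tested were protein coding.

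When a smooth trend on exon length was removed from each library, an alternative chosen after seeing the data, 1512 genes peaked, of which 1325 were among the original 1575, and 1470 dipped, of which 941 were among the original 1060. Voltage-gated channels then gave 3 peaks in place of 5 and synaptic proteins 2 in place of 4. Among peaks, Grin2b, Meg3 and the presynaptic adhesion gene Nrxn2 lost their call (log2 margins of 0.43, 0.55 and 0.46). Among dips, Rcl1, Atf3, Hspe1, Acta2 and Zfas1 lost theirs (log2 margins of -0.32, -0.60, -0.38, -1.47 and -0.86). All of the 12 steepest peaks and the 12 steepest dips kept theirs. Whether the trend reflects the tissue or the library preparation was not tested.

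**Figure D5:**
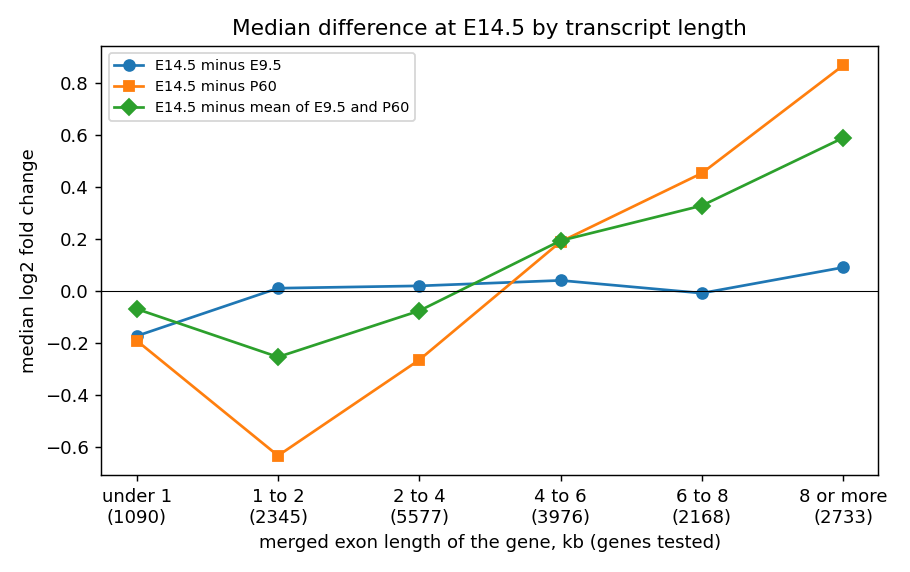
Median log2 fold change at E14.5 against E9.5, against P60 and against their mean (vertical axis) for genes grouped by merged exon length in kb (horizontal axis, number of genes tested in parentheses). The line for P60 climbs from -0.63 at 1 to 2 kb to 0.87 at 8 kb or more, and the line for E9.5 stays near 0.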

How the data were processed

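Poly(A)-primed full-length cDNA libraries, made with an ultra-low-input kit and PCR without molecular identifiers, were sequenced from 3 libraries per stage. The deposited values were raw read counts per gene, made by the authors. Per the submitters' processing notes, Trimmomatic 0.36 and STAR 2.5.2b were used with the mm10 genome. The counting program, its annotation and whether it used strand are not given in the sources used here. Reads of overlapping or near-identical genes may be shared. Of 45706 identifiers, 45143 matched GENCODE mouse release 21 (GRCm38), the source of symbols and coordinates, and 16156 had no read.

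All 9 libraries were fitted together by quasi-likelihood with the robust option in edgeR 4.0.16 (limma 3.58.1, R 4.3.3), scaled by TMM and filtered with filterByExpr on stage, and the script was tested on simulated data. The filter kept 17971 genes with about 0.311 CPM or more in at least 3 libraries. Two-sided p-values were adjusted over all genes tested by the Benjamini-Hochberg method, with a threshold of 0.05. E14.5 was contrasted with the mean of E9.5 and P60. A peak or dip further needed the larger of the p-values against E9.5 and against P60 to pass with both differences of one sign. The biological coefficient of variation was 19.9%, so the spread between libraries rather than depth limits abundant genes. CPM is per 1000000 counts after TMM scaling, and fold changes are fitted values with approximate SE. List counts have no test of their own. Library totals in the report are as deposited.

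Named genes were the 12 largest margins in each direction (mean of at least 20 CPM on the high side, no overlap between libraries, clone names left out), for each list up to 3 called members in the direction with more calls and 1 in the opposite one, and the genes of median margin. Where all called members of a list are given, or a gene is otherwise outside this rule, it was named after its values were seen. A few genes that the rule names or the lists count are not reported here. Members and lists were chosen with earlier results of these data known. Alternatives were 3 other scalings, no filter, DESeq2 1.42.0, no robust option, the replicate block, leaving out each library, and, added after seeing the data, removal of a length trend. Promoter windows are the 250 bases before RefSeq starts.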

Additional observations from a re-analysis of the deposited data

How the results depend on the processing

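Genes above both stages numbered 1575, and 1424 under median-of-ratios scaling, 1460 under upper-quartile scaling, 1832 with library totals, 1602 without the filter, 1590 with DESeq2 and 1579 without the robust option. The same settings gave 1292, 1223, 882, 960, 1518 and 1064 genes below both, against 1060. Leaving out 1 library gave 1227 to 1846 above and 692 to 1292 below. At a margin of at least 2-fold these ranges were 958 to 1210 above, against 1085, and 465 to 641 below, against 576. By the contrast with E14.5 beyond both stage levels they were 3375 to 3932 above and 2496 to 3394 below. The value of 692, without the second E14.5 library, was the only 1 of these counts more than 1.5 times from the main count. Library totals moved the median contrast of all genes by 0.113 on the log2 scale, and the other scalings by less.

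The replicate numbers could not be shown to pair the libraries, since same-numbered libraries of different stages had correlations of their deviations from -0.224 to 0.37. With the replicate block 1741 genes were above both stages and 1220 below (1107 and 576 at 2-fold, 3709 and 3178 by the contrast with E14.5 beyond both levels), and no named gene lost its call.

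Of 142 named genes 110 had the same call in every alternative, and 29 of 45 list counts stayed within 1.5 times. The single reversal was Numbl, at -0.055 with the length trend removed against 0.58. The cause was not tested. Genes with few reads, such as Car9 and Krt5, are limited by depth, since 132 dips were under 0.311 CPM in all 3 E14.5 libraries.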

Other observations

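Some peaks were close to all-or-none. For 68 of the 96 tested genes that stayed under 0.311 CPM in all 6 E9.5 and P60 libraries, E14.5 was called above both stages. These 96 genes passed the filter only through E14.5, so the share of them that peaked is fixed in part by the filter. Separately, 21 peaks had no read at E9.5 or no read at P60. Such a gene may have reads at the other stage, so that count alone does not make these peaks all-or-none.

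A few dips and peaks lay outside the brain lineages of the report. Trp63, an epidermal p53 relative, was at 8.33, 7.13 and 11 CPM at E9.5, 0.181, 0.196 and 0.115 CPM at E14.5, and 1.47, 0.881 and 1.53 CPM at P60 (7.72-fold margin, adjusted p = 0.00024). Krt5, a keratin of basal epithelia, rested on 40, 5 and 53 reads and lost its call without the second E14.5 library. Dct, a melanocyte and retinal pigment gene also present in cortical progenitors, was above both stages, at 0.201, 0.0995 and 0.319 CPM, then 11, 4.84 and 5.9, then 0.6, 1.82 and 1.24 (5.89-fold, adjusted p = 0.002), while Mitf, a pigment cell factor, was below both, at 5.05, 5.71 and 5.71 CPM, then 1.81, 2.69 and 3.42, then 8.9, 9.81 and 8.66 (2.08-fold, adjusted p = 0.008). Tyr, the defining pigment enzyme, was at 0.147 CPM or less in every library. Whether skin, eye or pigment cells were present in any dissection was not tested.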
